A study of Arabidopsis thaliana with 6 samples.

Results

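SP1L4 (AT5G15600), PTEN1 (AT5G39400), LSD1 (AT4G20380), SLD2 (AT2G46210) and AT3G26934 are protein-coding Arabidopsis thaliana genes on which fewer small RNA reads were counted in paps1-3 pollen than in wild-type pollen. These 5 genes, of 60936 annotated IDs of which 25994 are protein-coding genes, were selected on their summed small RNA reads in these same libraries, which were lower in the mutant, so their levels are given as a description, with no test. A stretch that PTEN1 shares with AT5G39410 has an ID of its own and is described beside PTEN1. Pollen grains of accession Col carrying paps1-3, a mutant allele of PAPS1, gave 3 libraries (16, 20 and 26), and wild-type Col grains gave 3 libraries (15, 19 and 25). Each of 3 isolations yielded mutant and wild-type grains from a common sample by sorting, so genotype cannot be told apart from sort gate, and the labels leave unsaid which libraries share an isolation. The parents' genotype, the marker used for sorting and the number of plants are not given in the sources used here. Libraries were built from whole RNA with the TruSeq small RNA chemistry and read on an Illumina HiSeq machine. Reads between 18 and 28 nt were tallied over annotated segments of genes and transposons.

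Dicer-like enzymes cut double-stranded RNA into products of fixed length. Micro RNAs and trans-acting siRNAs are mostly 21 or 22 nt long, and the siRNAs that guide DNA methylation to transposons are mostly 24 nt long. Messenger RNA that is broken down leaves short pieces with no preferred length, which small RNA libraries also capture. PAPS1 encodes a nuclear poly(A) polymerase, which adds the tails that stabilise messenger RNA.

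The paps1-3 libraries held 5562287 to 9922763 counted reads and the wild-type libraries 9312167 to 10139424. The 5 genes took 0.00317% ± 0.000671 of counted reads in paps1-3 and 0.0258% ± 0.00240 in wild type (SD, n = 3 each). PAPS1 itself had 0, 0 and 1 reads in paps1-3 libraries 16, 20 and 26, against 7, 4 and 4 in wild-type libraries 15, 19 and 25, which is too few to check the genotype labels. Levels below are CPM, that is, counts relative to the size of the library, scaled by TMM, a method that aligns the bulk of features between libraries. On that scale edgeR's quasi-likelihood test called 537 of 13464 tested features lower in paps1-3 (3.99%) and 1921 higher (14.3%) at an adjusted p under 0.05, and the median log2 fold change was −0.15. Per counted read, with no such scaling, the median was −0.94, and 5426 features (40.3%) were called lower and 811 (6.02%) higher, so the scaling sets where zero change lies. Scaled to reads on miRNA loci the median was 0.23. Libraries 16 and 15, whose TMM factors of 0.546 and 1.12 were the lowest of their genotype, stood apart from the others, and values without them are given where they differ.

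All 5 genes passed the filter on low counts and were among the 3.99% of features called lower, which restates how they were chosen. In each of them every paps1-3 library lay below every wild-type library, as in 17.3% of all tested features. Their log2 fold changes, paps1-3 over wild type, were −2.02 to −3.18 with a median of −2.12, beside a median of 0.31 over the 5496 protein-coding genes tested. From bulk pollen, fewer cells of a type and less RNA per cell cannot be told apart.

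SP1L4 belongs to the SPIRAL1 family of small plant proteins that bind microtubules. It had 22, 30 and 40 reads in paps1-3 libraries 16, 20 and 26, against 449, 393 and 416 reads in wild-type libraries 15, 19 and 25. The corresponding levels were 5.12, 6.25 and 4.55 CPM in paps1-3 and 40.1, 29.7 and 29.8 CPM in wild type. The mutant libraries lay close together, and wild-type library 15 stood above the other wild-type libraries. The mean was 5.31 ± 0.863 CPM in paps1-3 and 33.2 ± 6.02 CPM in wild type (SD, n = 3 each), a 6.30-fold lower level and a log2 fold change of −2.65 (SE 0.25). Without wild-type library 15 the log2 fold change was −2.34, and without libraries 15 and 16 it was also −2.34.

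PTEN1 encodes a lipid phosphatase that is expressed in pollen and needed for its maturation. It had 48, 48 and 93 reads in paps1-3, against 669, 521 and 542 reads in wild type. Levels were 11.2, 9.997 and 10.6 CPM in paps1-3 and 59.8, 39.3 and 38.8 CPM in wild type. Again the mutant libraries were nearly level and wild-type library 15 was the highest. The mean was 10.6 ± 0.584 CPM in paps1-3 and 46.0 ± 11.99 CPM in wild type, a log2 fold change of −2.12 (SE 0.27), or −1.72 without wild-type library 15 and −1.76 without libraries 15 and 16. The stretch shared with AT5G39410 moved alike, with 10, 9 and 26 reads in paps1-3, against 150, 132 and 168 in wild type, and a log2 fold change of −2.26 (SE 0.25), or −1.98 without wild-type library 15 and −1.95 without libraries 15 and 16. Reads on it cannot be assigned to either gene. AT5G39410 had 0 to 1 reads outside that stretch in a paps1-3 library and 0 to 2 in a wild-type library. With the stretch added to PTEN1, the log2 fold change of PTEN1 was −2.15.

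LSD1 encodes a zinc finger protein that holds back cell death, known from leaves that form spreading lesions without it. It had 11, 17 and 26 reads in paps1-3, against 171, 113 and 199 in wild type. Levels were 2.56, 3.54 and 2.96 CPM in paps1-3 and 15.3, 8.53 and 14.2 CPM in wild type. Wild-type library 19 was the low one here, and it still lay above every paps1-3 library. The mean was 3.02 ± 0.494 CPM in paps1-3 and 12.7 ± 3.63 CPM in wild type, a log2 fold change of −2.06 (SE 0.28), or −1.74 without wild-type library 15 and −1.67 without libraries 15 and 16.

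SLD2 encodes a desaturase that puts a double bond into the long-chain base of sphingolipids. It had 93, 94 and 168 reads in paps1-3, against 1115, 934 and 1049 in wild type. Levels were 21.6, 19.6 and 19.1 CPM in paps1-3 and 99.7, 70.5 and 75.0 CPM in wild type. The gap between the genotypes was wider than the spread within either. The mean was 20.1 ± 1.33 CPM in paps1-3 and 81.7 ± 15.7 CPM in wild type, a log2 fold change of −2.02 (SE 0.27), or −1.70 without wild-type library 15 and −1.76 without libraries 15 and 16.

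AT3G26934 has no symbol in the annotation used here, and no role is given to it. It had 16, 11 and 23 reads in paps1-3, against 374, 289 and 310 in wild type. Levels were 3.72, 2.29 and 2.62 CPM in paps1-3 and 33.4, 21.8 and 22.2 CPM in wild type. It showed the widest gap of the 5 genes, at rank 7 by log2 fold change among the 537 features called lower. The mean was 2.88 ± 0.749 CPM in paps1-3 and 25.8 ± 6.61 CPM in wild type, a 9.06-fold lower level and a log2 fold change of −3.18 (SE 0.28). Without wild-type library 15 it was −2.79, and without libraries 15 and 16 it was −2.98. By the same order SP1L4 ranked 13, PTEN1 46, LSD1 51 and SLD2 56, and the last 3 did not differ in log2 fold change beyond their standard errors.

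**Figure D1:**
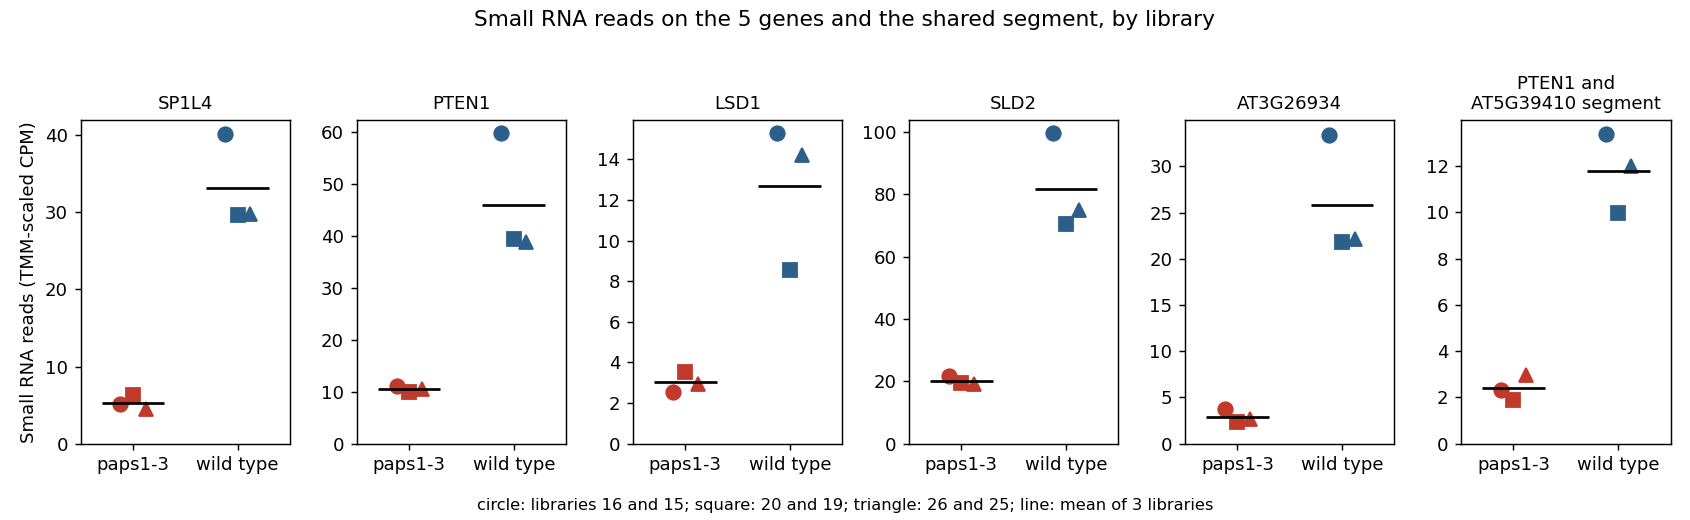
Small RNA reads in TMM-scaled CPM (vertical axis, starting at 0 and scaled for each gene) in paps1-3 and wild-type libraries, 1 point per library with a line at the mean of 3. In every panel all paps1-3 points lie below all wild-type points, and wild-type library 15 (circle) is the highest.

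Libraries with adjacent numbers deviated together from their genotype means across features and were taken as isolations. Taking the CPM of each paps1-3 library over that of the wild-type library next to it, the log2 ratio for 16 over 15, 20 over 19 and 26 over 25 was −2.97, −2.25 and −2.71 for SP1L4. It was −2.42, −1.98 and −1.87 for PTEN1, −2.58, −1.27 and −2.27 for LSD1, and −2.20, −1.85 and −1.97 for SLD2. For AT3G26934 it was −3.17, −3.25 and −3.08. The log2 ratio was below 0 in each pair for each gene. Any pairing would give that, since every paps1-3 library lay below every wild-type library. LSD1 varied most between pairs, and AT3G26934 least.

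How far the levels lay apart depended on the scaling, while the direction did not. Per counted read, with no scaling factors, the log2 fold changes of the 5 genes were −2.80 to −3.96, and with libraries scaled to their reads on miRNA loci they were −1.67 to −2.82. Relative to the median of all tested features on the same scale, the genes lay lower in each case.

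The reads were not confined to a single stretch of a gene. The files list 24 segments for the 5 genes and the shared stretch, of which 20 had at least 50 reads over the wild-type libraries. On those 20 the mean CPM in paps1-3 was 0.0867 to 0.399 of that in wild type. On 19 of them every paps1-3 library lay below every wild-type library. These segments are parts of the sums that chose the genes and were kept on wild-type reads alone, so low ratios largely restate the choice. How often segments of all features separate in this way was not computed. The exception was segment 3 of LSD1, with 2, 4 and 2 reads in paps1-3, against 29, 9 and 26 in wild type. SLD2 has a single segment.

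In SP1L4 most reads lay on segment 2 of 3, in file order, with 74 reads in paps1-3 and 1054 in wild type over 3 libraries each, 80.4% and 83.8% of the gene's reads. Segment 1 held 2 reads in paps1-3 and 1 in wild type. In PTEN1 the reads spread over all 7 segments of its own, and the ratio of mean CPM ran from 0.159 on segment 4 to 0.399 on segment 1. Segment 4 accounted for 19.0% of PTEN1 reads in paps1-3 and 27.4% in wild type. In LSD1, 7 of 9 segments held 43 to 87 wild-type reads each, and segments 4 and 5 held at most 1 read in either genotype. In AT3G26934 the ratio was 0.135, 0.161 and 0.0867 on segments 1, 2 and 3. A transposon, AT3TE41320, is listed between its segments 2 and 3 and had 0, 0 and 1 reads in paps1-3, against 0, 2 and 5 in wild type.

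**Figure D2:**
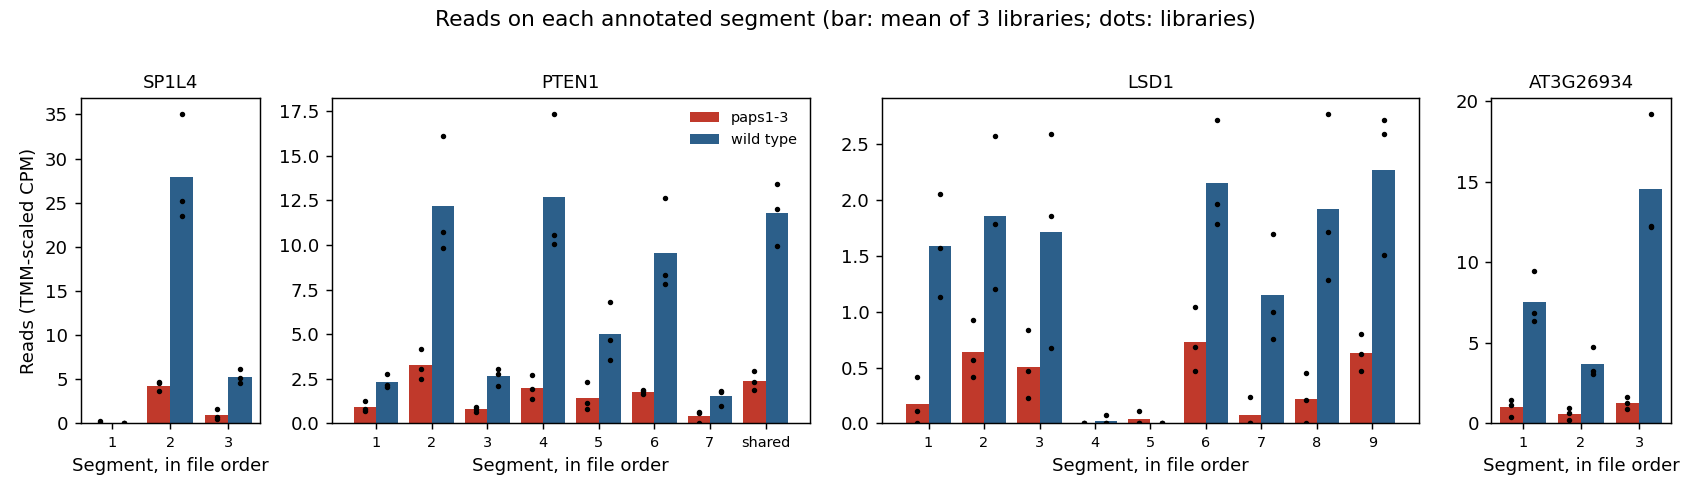
TMM-scaled CPM (vertical axis) on each annotated segment of SP1L4, PTEN1, LSD1 and AT3G26934 in file order (horizontal axis), with bars for the mean of 3 paps1-3 and 3 wild-type libraries and a dot per library. Wherever the wild-type bar stands clear of 0, the paps1-3 bar is below 0.4 of it. SLD2, with 1 segment, is left out.

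Read length was not used to choose the genes and was tested. The reads of the 5 genes covered every length from 18 to 28 nt, with no single length above 18.6% of a gene's wild-type reads. In wild type the commonest length was 19 nt in SP1L4 (18.6% of its reads) and in PTEN1 (12.2%), 18 nt in LSD1 (17.8%), 20 nt in SLD2 (13.9%) and 21 nt in AT3G26934 (13.7%). In paps1-3, with far fewer reads, it was 18 nt in SP1L4 and LSD1 and 21 nt in SLD2. In PTEN1 20 and 21 nt tied there with 27 reads each, and in AT3G26934 22 and 23 nt tied with 8 reads each. For comparison, reads of 21 and 22 nt made up 86.6% ± 1.06 of the reads of the median miRNA locus in paps1-3 and 88.2% ± 0.607 in wild type (SD, n = 3 each, 70 loci).

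Reads of 21 and 22 nt made up 25.3% ± 7.25 of SP1L4 reads in paps1-3 and 19.5% ± 1.54 in wild type. For PTEN1 the share was 22.8% ± 3.53 in paps1-3 and 22.9% ± 3.93 in wild type, and for LSD1 21.1% ± 11.04 and 19.9% ± 1.24. It was 26.8% ± 3.63 in paps1-3 and 25.0% ± 3.86 in wild type for SLD2, and 28.1% ± 8.74 and 22.2% ± 2.03 for AT3G26934 (SD, n = 3 each). These shares were close to that of the median protein-coding gene (1240 other genes with a mean of at least 50 reads per library), which was 23.2% ± 0.794 in paps1-3 and 22.96% ± 2.15 in wild type. The wide SD in paps1-3 goes with counts as low as 11 reads of LSD1 in a library.

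Reads of 24 nt made up 10.5% ± 1.77 of SP1L4 reads in paps1-3 and 10.2% ± 2.92 in wild type. The share was 8.11% ± 5.27 in paps1-3 and 8.82% ± 1.51 in wild type for PTEN1, and 7.56% ± 1.61 and 7.28% ± 3.04 for LSD1. It was 8.05% ± 3.28 in paps1-3 and 8.25% ± 1.26 in wild type for SLD2, and 10.096% ± 2.09 and 9.30% ± 2.06 for AT3G26934. The median protein-coding gene had 7.88% ± 0.827 in paps1-3 and 8.09% ± 1.64 in wild type, while the median of 1521 transposons had 22.9% ± 3.62 and 28.1% ± 8.58.

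Within each library, the share of a gene was set against that of the median protein-coding gene by an exact two-sided sign-flip permutation test over the 6 libraries, whose smallest p is 0.0312, with Benjamini-Hochberg adjustment over 10 tests. With that floor at least 7 of the 10 tests would have to reach it for any to pass, so a difference in 1 gene alone could not. No gene passed at either length. SLD2 had 2.82 ± 2.68 percentage points more 21- and 22-nt reads than the median protein-coding gene and was higher in 6 of 6 libraries (exact p = 0.0312, adjusted 0.208). SP1L4 had 2.39 ± 2.02 points more 24-nt reads and was higher in 5 of 6 (exact p = 0.0625, adjusted 0.208), and AT3G26934 had 1.72 ± 1.59 points more and was higher in 5 of 6 and lower in 0 (exact p = 0.0625, adjusted 0.208). In the other 7 tests the mean difference was −2.56 to 2.07 points, with an adjusted p of 0.812. Missing the threshold does not show that the shares were equal.

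Against the median transposon the same test gave lower 24-nt shares for all 5 genes, in 6 of 6 libraries each. The difference was −15.2 points for SP1L4, −17.1 for PTEN1, −18.1 for LSD1, −17.4 for SLD2 and −15.8 for AT3G26934 (exact permutation p = 0.0312 each, adjusted 0.0391). The share of 21- and 22-nt reads was also below the median transposon for PTEN1 (−6.67 points), LSD1 (−9.02) and SLD2 (−3.64), in 6 of 6 libraries each (exact permutation, adjusted p = 0.0391). For SP1L4 the difference was −7.11 points and for AT3G26934 −4.39, and neither passed (exact permutation, adjusted p = 0.104 and 0.25). The median protein-coding gene also lay below the median transposon in both shares in every library, so such differences are not particular to the 5 genes. How many protein-coding genes would pass was not computed. Counting the 2 libraries of an isolation as 1 unit, which was added after seeing the data, leaves 3 units and a smallest exact permutation p of 0.25, so no such test could pass. On those units the 24-nt share of each of the 5 genes was below that of the median transposon in 3 of 3 isolations (exact permutation, adjusted p = 0.312).

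**Figure D3:**
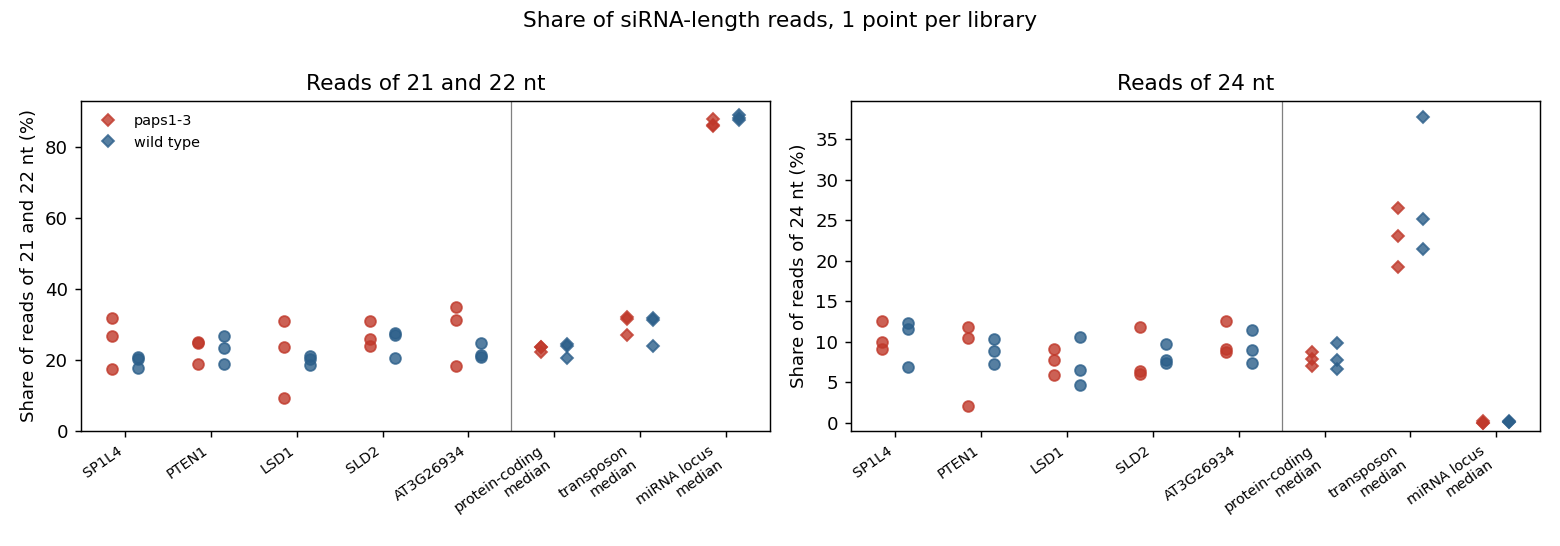
Share of reads of 21 and 22 nt (left) and of 24 nt (right), in percent, for each gene and for the median protein-coding gene, transposon and miRNA locus, 1 point per library with paps1-3 left of wild type. The 5 genes lie around the protein-coding median on both panels, far below the miRNA median at 21 and 22 nt and below the transposon median at 24 nt.

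For each gene the mean CPM was lower in paps1-3 at each of the 11 lengths taken alone. Reads of each length are part of the sum that chose the gene, so lower levels at most lengths largely restate the choice. In 2 of these 55 pairs of gene and length the libraries of the genotypes overlapped, LSD1 at 23 nt (paps1-3 up to 0.698 CPM, wild type from 0.453 CPM) and LSD1 at 26 nt (a ratio of means of 0.505). How often such pairs separate over all features was not computed. Between 18 and 24 nt the mean CPM in paps1-3 was 0.135 to 0.251 of that in wild type for SP1L4, 0.186 to 0.330 for PTEN1 and 0.126 to 0.330 for LSD1. For SLD2 it was 0.204 to 0.314, and for AT3G26934 0.0727 to 0.191. At the lengths of Dicer products (21, 22 and 24 nt) the ratios of the 5 genes were 0.118 to 0.314, and at 18, 19, 20 and 23 nt they were 0.0727 to 0.330. SLD2 at 21 nt had 60 reads in paps1-3 and 427 in wild type over 3 libraries each, a ratio of 0.314, and at 20 nt 44 reads in paps1-3 and 432 in wild type, a ratio of 0.204.

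**Figure D4:**
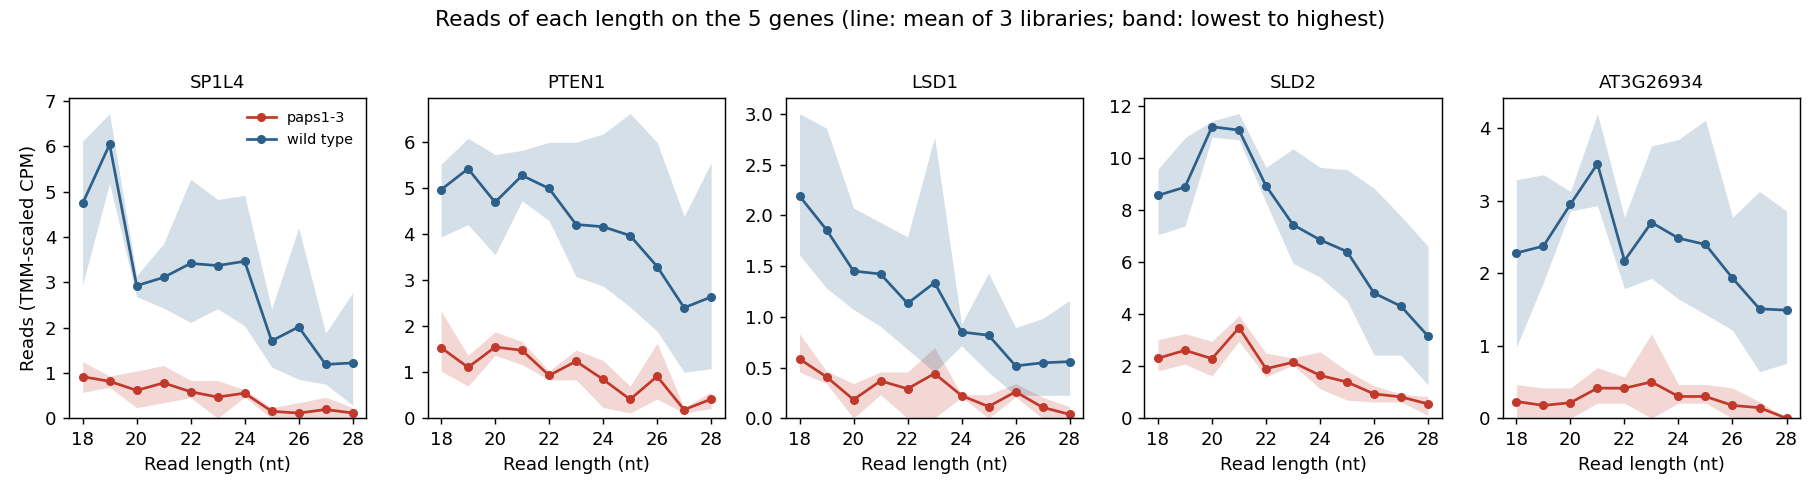
TMM-scaled CPM of reads of each length (horizontal axis, 18 to 28 nt) on each gene, as the mean (line) and the lowest to highest library (band) of 3 paps1-3 and 3 wild-type libraries. The paps1-3 line lies below the wild-type line at each length of each gene, and wild-type reads are present at every length from 18 to 28 nt.

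Across 3659 nuclear features with a mean of at least 50 reads per library, likeness of length profile was measured as the total variation distance between shares of reads over the 11 lengths, averaged over the 6 libraries. Each library counted equally, also those with 11 reads of LSD1 or of AT3G26934. At that minimum there were 1240 protein-coding genes besides the 5, and 1521 transposons. In each case the 3 features nearest to a gene were protein-coding genes. For SP1L4 they were AT2G07687 (distance 4.501%), PIP5K5 (5.98%) and CDEF1 (6.37%), where the median feature was at 30.8%. For PTEN1 they were CSLD4 (3.29%), AT1G80470 (3.52%) and ATK4 (3.81%), and for LSD1 VTC2 (6.18%), SIP1 (6.27%) and AT4G31290 (6.60%). SLD2 was nearest to AT4G25780 (2.55%), AT1G02660 (2.69%) and ADF7 (2.86%), and AT3G26934 to UBQ3 (4.88%), ACT1 (4.97%) and AT2G20440 (5.25%). These 15 neighbours in profile had log2 fold changes from −0.88 to 3.05. The highest was that of AT2G07687, which lies in a nuclear copy of mitochondrial DNA, so its reads may also match the mitochondrial genome. Without it the range was −0.88 to 1.83. No gene among the 5 was among the nearest 3 of another, the closest being at rank 34 from LSD1.

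Relatives of the 5 genes were counted from lists of their families and pathways. Of 5 other SPIRAL1 family genes only SP1L5 had enough reads to be tested, and 0 were called by edgeR (0 at an unadjusted p under 0.05, and 0 by DESeq2). SP1L5 had 32.3, 39.2 and 28.4 CPM in paps1-3 and 26.5, 35.8 and 32.7 CPM in wild type, and the genotypes overlapped. Its log2 fold change was 0.07 (edgeR adjusted p = 0.871), and −0.73 per counted read (edgeR adjusted p = 0.0511). The ratio of SP1L4 reads to SP1L5 reads, which no scaling between libraries touches, was 0.159 ± 0.00119 in paps1-3 and 1.09 ± 0.376 in wild type (SD, n = 3 each). It compares the genotypes, not the levels of the genes, whose lengths differ. SP1L4 was chosen for its lower reads in paps1-3, so the lower ratio there follows in part from the choice.

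Phosphoinositides are membrane lipids that kinases and phosphatases convert into each other, and in pollen tubes they mark the growing tip. Of 26 other genes on this list 19 were tested, 9 were called higher in paps1-3, 1 was called lower and 9 did not pass, with a median log2 fold change of 0.95. Over all protein-coding genes tested 24.9% were called higher and 4.15% lower.

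Among kinases that make phosphatidylinositol bisphosphate, reads on PIP5K4, PIP5K5 and PIP5K6, which act in pollen tube growth, were higher in paps1-3 by 1.23, 1.72 and 0.95 on the log2 scale. PIP5K5 had 28.98 ± 6.71 CPM in paps1-3 and 8.82 ± 0.646 CPM in wild type (SD, n = 3 each, edgeR adjusted p = 0.000342). PIP5K11, another pollen kinase gene, fell to 7.26 ± 1.95 CPM in paps1-3, against 17.1 ± 1.81 CPM in wild type, a log2 fold change of −1.25 (edgeR adjusted p = 0.00251). PI4KA1, SAC3, SAC5 and SAC9 were called higher, with log2 fold changes of 0.95, 1.61, 1.58 and 0.97. Per counted read only PIP5K5 kept its call among the 9 higher genes, at a log2 fold change of 0.91 (edgeR adjusted p = 0.0185), the other 8 had positive values that did not pass, and 4 genes were called lower. PI4KA1, SAC3 and SAC9 also lost their calls when some single libraries were left out.

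LSD1 acts with BZIP10, a transcription factor it keeps out of the nucleus, with metacaspase MC1 and with catalases. Of 11 genes on this list 5 were tested, 1 was called higher and 0 lower by edgeR, with a median log2 fold change of 0.38, beside the 24.9% and 4.15% of protein-coding genes. At an unadjusted p under 0.05 there were 2, and DESeq2 called 1. BZIP10 rose to 4.42, 2.92 and 2.96 CPM in paps1-3, against 0.626, 1.06 and 1.001 CPM in wild type, a log2 fold change of 1.88 (edgeR adjusted p = 0.00243). Per counted read its log2 fold change was 1.05 and did not pass (edgeR adjusted p = 0.0541).

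Of 19 other genes of sphingolipid synthesis 12 were tested, 2 were called higher, 1 lower and 9 did not pass, with a median log2 fold change of −0.07, again beside 24.9% called higher and 4.15% lower among protein-coding genes. SLD1, the paralog of SLD2, was singled out after its values were seen. It had 62.1, 47.3 and 54.5 CPM in paps1-3 and 79.8, 56.6 and 63.4 CPM in wild type, with overlap between the genotypes and a log2 fold change of −0.29 (edgeR adjusted p = 0.509). Its value was 0.07 when scaled to miRNA loci, and −1.08 per counted read, where it passed (edgeR adjusted p = 0.00533). SLD2 reads were 0.371 ± 0.0373 times those of SLD1 in paps1-3 and 1.23 ± 0.0364 times in wild type (SD, n = 3 each), with the libraries of each genotype close together. As with SP1L4, the lower ratio in paps1-3 follows in part from the choice of SLD2. The sources used here do not say how reads that match both paralogs were counted.

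The delta-4 desaturase gene AT4G04930, which acts on the same long-chain bases and is known from flowers, fell to 9.30, 8.12 and 7.17 CPM in paps1-3, against 17.6, 14.2 and 17.3 CPM in wild type. Its log2 fold change was −1.01 (edgeR adjusted p = 0.00481), and the call was lost without paps1-3 library 26. ADS2, a fatty acid desaturase gene, had 9.82 ± 1.21 CPM in paps1-3 and 1.16 ± 0.304 CPM in wild type, a log2 fold change of 3.09 (edgeR adjusted p = 2.46e-05). LCB2a, for a subunit of the enzyme that starts the pathway, was called higher at 0.76 (edgeR adjusted p = 0.0311), which did not hold with DESeq2, and per counted read it was −0.05. Per counted read 1 gene of the list was called higher and 6 lower.

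**Figure D5:**
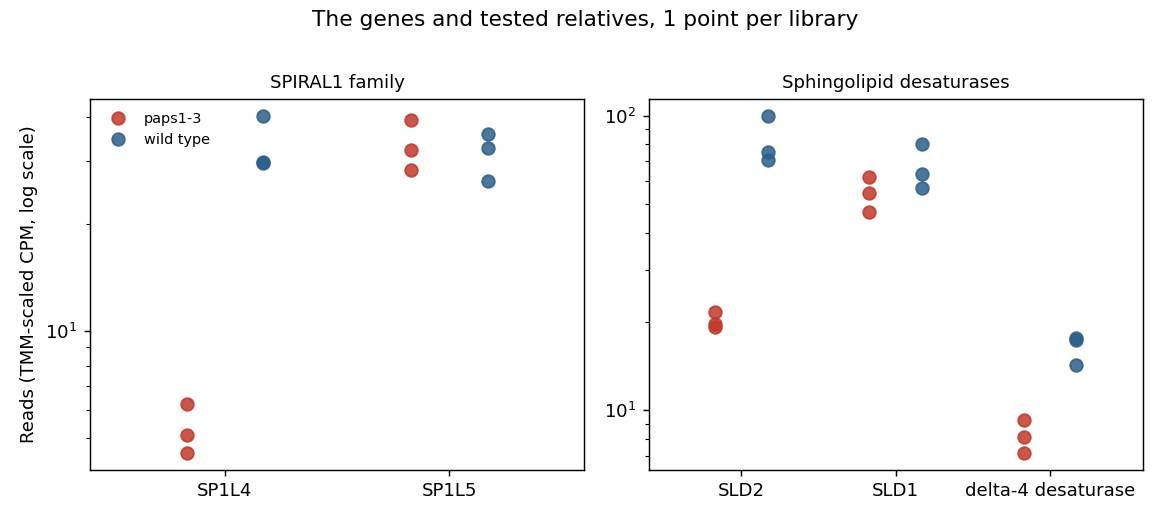
TMM-scaled CPM (vertical axis, log scale) of SP1L4 and SLD2 beside tested relatives, 1 point per library with paps1-3 left of wild type. SP1L4 and SLD2 separate widely downward in paps1-3, SP1L5 and SLD1 overlap between genotypes, and the delta-4 desaturase gene lies lower in paps1-3 on this scale.

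Genes next to the 5 in the annotation had few reads, with 1 exception. AT5G39420, a cyclin-dependent kinase gene beyond AT5G39410, had 33.5, 27.3 and 34.95 CPM in paps1-3 and 51.9, 42.8 and 46.8 CPM in wild type. The genotypes did not overlap, but the log2 fold change of −0.56 did not pass (edgeR adjusted p = 0.142). It passed with the replicate block (edgeR adjusted p = 0.0169) and per counted read, at −1.35 (edgeR adjusted p = 0.00223). AT5G15610, next to SP1L4, had 0.921 ± 0.194 CPM in paps1-3 and 1.43 ± 0.145 CPM in wild type, with a log2 fold change of −0.59 (edgeR adjusted p = 0.301). There too the genotypes did not overlap, and per counted read it was called lower at −1.37 (edgeR adjusted p = 0.0313).

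Markers of pollen and other cell types moved unevenly beside these results. Summed reads on the 3 vegetative-cell markers VEX1, VGD1 and PPME1 were 5615 to 12211 per paps1-3 library and 11245 to 12874 per wild-type library. VEX1 and PPME1 were called higher at log2 fold changes of 2.37 and 1.61 (edgeR adjusted p = 0.000235 and 0.00221). VGD1, which held most of the summed reads, was not called, at 0.31 (edgeR adjusted p = 0.543) and −0.48 per counted read. Among protein-coding genes tested 24.9% were called higher and 4.15% lower. The 4 sperm-cell markers summed to 38 to 81 reads in paps1-3 and 122 to 133 in wild type. Only 1 of them, DAZ2, was called, lower at −1.95 (edgeR adjusted p = 0.00357). HAP2, GEX1 and MGH3 were not called, with log2 fold changes of 0.58, 0.41 and 0.20 (edgeR adjusted p = 0.308, 0.314 and 0.786). Per counted read theirs were −0.23, −0.40 and −0.55, and none passed. The 3 leaf markers CAB1, RBCS1A and RBCS3B summed to 16 to 57 reads in paps1-3 and 90 to 101 in wild type. Their log2 fold changes were −0.74, 0.08 and −0.06, and none passed (edgeR adjusted p = 0.123, 0.910 and 0.947). Per counted read CAB1 was called lower at −1.48 (edgeR adjusted p = 0.0129). RBCS1A and RBCS3B, at −0.71 and −0.82, did not pass there (edgeR adjusted p = 0.240 and 0.170). The 3 tapetum markers summed to 3 to 8 reads in paps1-3 and 7 to 9 in wild type, and A9 and LTP12 had 0 reads in every paps1-3 library. The part of cell makeup in the values of the 5 genes was not tested.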

How the data were processed

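Small RNA libraries of 3 paps1-3 and 3 wild-type pollen samples were used. The deposited files hold counts of reads per annotated segment and read length (18 to 28 nt), with no normalisation, per the file headers. The submitters' processing notes name Trimmomatic, BWA, SAMtools, bedtools and the build TAIR10, with neither versions nor parameters. Strand and reads that map to several places are not described in the sources used here, so overlapping, antisense and near-identical genes are uncertain. Counts over 176473 segments were summed per ID, and 2043 joined IDs were kept as features. Names came from RefSeq TAIR10.1, where 27975 of the 28395 nuclear gene IDs were found. No coordinates or sequences were taken from it, since the files give none.

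All features were tested in R 4.3.3 with edgeR 4.0.16, using its quasi-likelihood test with robust dispersion, TMM factors, filterByExpr, genotype as the only term and Benjamini-Hochberg adjustment at 0.05. Depth was 5562287 to 10139424 counted reads per library. TMM factors were 0.546, 0.870 and 0.893 in paps1-3 and 1.12, 1.38 and 1.53 in wild type. Length shares were compared with exact sign-flip permutation tests (Python 3.11.15, numpy 2.4.6, pandas 2.3.3, scipy 1.17.1, and matplotlib 3.10.9 for figures). The edgeR step was tested on simulated data with 200 of 13464 features changed, all drawn from those above the median level. It found 36% of the 2-fold and 95% of the 4-fold changes, and 8.39% of calls were false. The simulated libraries had the real sizes without the differences in TMM factor, so these rates need not hold for the real libraries. Nor do they cover features below the median level.

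The genes, the lists of relatives and the tests were chosen with earlier results of these data known. Named relatives are those called (or, where none was, those with most reads), SLD1, which was added after its values were seen, the 3 features nearest in length profile, and annotated neighbours. Whether isolations used separate plants is unstated, and p-values therefore measure only the spread between these samples, possibly technical. Deviations from the genotype means correlated for libraries 16 and 15, 20 and 19, and 26 and 25 (r = 0.40, 0.24 and 0.23, all above 0.1), and at −0.29 to 0.12 for other pairs. Adjacent numbers were therefore taken as isolations in a blocked fit. The other alternatives were DESeq2 1.42.0, RLE factors, total counted reads, scaling to miRNA loci, a fit with every feature kept, a stricter count minimum (a mean of 1 CPM with 10 counts in 3 libraries), structural and organellar features left out, joined IDs added to their genes, each library left out, libraries 15 and 16 left out, and for length shares other reference sets, a lower minimum of 20 reads, reads of 20 to 25 nt alone and, added after seeing the data, signs flipped by isolation. Some relatives that were called are not reported here.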

Additional observations from a re-analysis of the deposited data

How the results depend on the processing

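Each of the 5 genes and the shared stretch had a negative log2 fold change under every alternative run, from −3.42 to −2.29 for SP1L4, −2.88 to −1.72 for PTEN1, −2.83 to −1.67 for LSD1, −2.80 to −1.67 for SLD2, −3.96 to −2.79 for AT3G26934 and −3.04 to −1.87 for the stretch. The median log2 fold change of all tested features was −0.15 in the fit reported, −0.94 per counted read and 0.23 scaled to miRNA loci. How many features were called changed with the setting as well, and the cause was not tested. Features called higher were 811 per counted read and 2944 scaled to miRNA loci, against 1921, and 1402 to 2729 with a library left out. Features called lower were 5426 per counted read, 182 scaled to miRNA loci and 287 with DESeq2, against 537. With a library left out they were 147 to 408, with 309 without paps1-3 library 16, 267 without 20, 147 without 26 and 301 without wild-type library 25. With adjacent libraries as a replicate block 1154 features were called lower and 2530 higher. Under the block 13 phosphoinositide genes were called (11 higher, 2 lower), 2 LSD1 partners, 4 sphingolipid genes and 0 SPIRAL1 genes. Phosphoinositide genes called were 10 in the fit reported, 5 per counted read and 6 to 11 with a library left out (6 without wild-type library 19). LSD1 partners called were 1, against 0 per counted read, 2 with RLE factors, scaled to miRNA loci or without structural and organellar features, and 1 to 2 with a library left out (2 without wild-type library 15 or paps1-3 library 20). Sphingolipid genes called were 3, against 7 per counted read and 1 to 4 with a library left out (1 without paps1-3 library 26). Set against the median transposon in place of the median protein-coding gene, whose shares differ, the difference in 21- and 22-nt reads was −6.67 points for PTEN1, −9.02 for LSD1 and −3.64 for SLD2, and in 24-nt reads −15.2 for SP1L4, −17.1 for PTEN1, −18.1 for LSD1, −17.4 for SLD2 and −15.8 for AT3G26934, each past the threshold. No other alternative in which length shares were tested brought a share past it. With a library left out only the differences in share were computed, with no test. With signs flipped by isolation, chosen after seeing the data, the smallest exact permutation p was 0.25, so no test could pass. In a paps1-3 library 11 to 26 reads of LSD1 and 11 to 23 of AT3G26934 underlie these shares.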

Other observations

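LCB2b, which encodes the other form of the catalytic subunit of the enzyme that starts sphingolipid synthesis, varied more between libraries than any of the 5 genes, and was picked out after its values were seen. It had 43.3, 102 and 35.5 CPM in paps1-3 libraries 16, 20 and 26, against 321, 108 and 38.8 CPM in wild-type libraries 15, 19 and 25. Wild-type library 15 stood above all others, the genotypes overlapped, and the log2 fold change of −1.37 did not pass (edgeR adjusted p = 0.224).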
